A study of Mus musculus with 180 samples.

Results

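The comparison is of TRIM28 binding in naive mouse embryonic stem cells (ESCs) of the strains DBA/2J (D2) and C57BL/6J (B6). TRIM28 was measured by chromatin immunoprecipitation and sequencing (ChIP-seq), in which DNA bound by a protein is recovered with an antibody and counted. The D2 group held 3 untreated cell lines, D29, D55 and DAC203, and the B6 group held 3 untreated cell lines, B41, B44 and B51, with 1 library from each. All were kept as naive ESCs, and the labels name no transgene or deletion in any line. Every region of the deposited TRIM28 table with a mean signal above 0 over the 6 libraries was taken, which kept all 94211 regions. The libraries are 6 of 180 samples in a study of how the genetic difference between these strains shows in pluripotent chromatin and expression. Open chromatin (ATAC-seq), RNA and ChIP-seq of P300 and POU5F1 from the same lines served as separate readouts. The replicates are different lines of a strain, and nothing in the sources says whether they came from different embryos, so the p-values here reflect variation among lines only. In bulk libraries such as these, binding in fewer cells and less binding per cell cannot be told apart.

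TRIM28 (KAP1) is a co-repressor without sequence preference of its own. KRAB zinc finger proteins carry it to DNA, where it gathers the histone methyltransferase SETDB1, HP1 proteins and histone deacetylases and lays down H3K9 trimethylation. In ESCs it is best known for keeping retroviral elements silent and for guarding genomic imprints: the KRAB protein ZFP57, helped by ZFP445, binds the methylated copy of imprinting control regions and holds TRIM28 there. ZFP57 reads a short motif, TGCCGC, when its CpG is methylated.

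Many regions of imprinted genes were lower in D2; these genes are expressed from a single parental copy. Stretches of 150 bases from 6 of these control regions, and from the neurofilament gene Nefm, show the ZFP57 motif in bound DNA. They are from the plus strand of the NCBI GRCm38 (mm10) genome, which is the B6 sequence, and capitals mark TGCCGC or its reverse complement GCGGCA. Each is the stretch of the TRIM28 region with the most motifs. The choice of genes shown was made after their values were seen.
Nap1l5, chr6:58906858-58907007: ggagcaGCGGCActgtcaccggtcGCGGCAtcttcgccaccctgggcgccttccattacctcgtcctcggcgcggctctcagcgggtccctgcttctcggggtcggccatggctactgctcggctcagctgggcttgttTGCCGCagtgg
Plagl1, chr10:13091001-13091150: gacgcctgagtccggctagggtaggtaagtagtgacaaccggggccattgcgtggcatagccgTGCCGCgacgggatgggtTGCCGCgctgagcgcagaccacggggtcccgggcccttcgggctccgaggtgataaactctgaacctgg
Mest, chr6:30738073-30738222: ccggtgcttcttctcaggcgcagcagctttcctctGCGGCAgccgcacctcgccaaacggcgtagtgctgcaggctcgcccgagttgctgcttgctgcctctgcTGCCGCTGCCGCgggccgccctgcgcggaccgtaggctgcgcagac
Peg3, chr7:6730042-6730191: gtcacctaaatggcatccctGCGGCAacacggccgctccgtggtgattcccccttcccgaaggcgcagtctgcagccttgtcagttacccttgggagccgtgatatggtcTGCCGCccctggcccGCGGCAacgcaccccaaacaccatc
Snrpn, chr7:60004317-60004466: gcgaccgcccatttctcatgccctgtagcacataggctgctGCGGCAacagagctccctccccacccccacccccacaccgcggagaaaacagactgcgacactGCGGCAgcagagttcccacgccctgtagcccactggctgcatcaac
Igf2r, chr17:12741704-12741853: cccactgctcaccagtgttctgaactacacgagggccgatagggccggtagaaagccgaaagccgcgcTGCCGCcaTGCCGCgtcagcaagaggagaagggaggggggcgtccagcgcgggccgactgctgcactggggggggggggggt
Nefm, chr14:68121618-68121767: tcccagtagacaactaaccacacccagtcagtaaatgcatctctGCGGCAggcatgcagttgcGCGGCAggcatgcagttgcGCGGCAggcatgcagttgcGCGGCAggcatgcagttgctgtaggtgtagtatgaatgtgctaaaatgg

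Also shown are the 150 bases at the middle of 2 regions among those with the largest strain differences, which hold no such motif. These stretches were taken by position and those above by motif count, so the 2 kinds are not a matched contrast. Even the richest 150 bases hold a copy in only 32.7% of all regions. The region on chromosome 17 was higher in D2 and the region on chromosome 12 was lower in D2, and both lie between genes. The whole chromosome 12 region holds 1 copy outside the stretch shown.
Chromosome 17, chr17:6496860-6497009: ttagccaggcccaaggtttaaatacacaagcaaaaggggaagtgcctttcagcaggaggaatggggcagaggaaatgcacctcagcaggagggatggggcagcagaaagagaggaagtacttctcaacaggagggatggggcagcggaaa
Chromosome 12, chr12:20956359-20956508: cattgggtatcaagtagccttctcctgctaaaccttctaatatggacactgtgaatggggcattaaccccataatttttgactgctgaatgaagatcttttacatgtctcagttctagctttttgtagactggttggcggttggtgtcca

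TRIM28 binding differed between the strains at a large share of its regions. With limma on log2(signal + 0.1) and Benjamini-Hochberg adjustment at 0.05 over all regions, 35908 of 94211 regions (38.1%) were called. Of these, 18528 (19.7% of all regions) were higher in D2 and 17380 (18.4%) were lower. The D2 and B6 lines did not overlap at 44701 regions (47.4%). Differences are D2 minus B6 on that log2 scale, which understates the change of regions with low signal, and the median over all regions was 0.05. Losses were larger than gains: 6316 regions were over 2-fold higher and 7862 over 2-fold lower, whereas 151 were over 8-fold higher and 1238 over 8-fold lower. Which side held more calls was not stable: 16792 were higher and 18935 lower after median-ratio rescaling alone, and 18223 higher and 17712 lower after quantile normalization. On recovered reads, with test and scaling both changed, 18045 were higher and 19111 lower by edgeR's quasi-likelihood test, and 12171 higher and 14954 lower by DESeq2.

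The libraries held 6870762, 17092029 and 6872995 recovered reads in regions for D29, D55 and DAC203, against 5944103, 6536728 and 5634327 for B41, B44 and B51. Across regions, the log2 signals of a line correlated with the other lines of its strain at a mean r of 0.94 to 0.96, and with lines of the other strain at 0.66 to 0.69. Naive ESC marker genes summed to an RNA signal of 6705 to 7098 in D2 lines and 7658 to 8386 in B6 lines, with 5 of 10 lower and 1 higher in D2. EpiLC markers, of the state that follows naive pluripotency, summed to 203 to 270 in D2 lines and 86.7 to 124.3 in B6 lines, with 3 of 4 higher in D2. Most of that sum was Dnmt3b, which averaged 223 ± 42.0 in D2 and 92.8 ± 19.5 in B6. Pou3f1 was not called (0.05). The Otx2 call was lost without B44, B51 or DAC203 (limma adjusted p up to 0.0843). Fibroblast markers, of the feeder cells a culture can hold, summed to 4494 to 4860 in D2 and 4549 to 6084 in B6, with 3 of 19 higher and 2 lower. Over all genes, 17.3% were higher and 20.3% lower. The part of these cell states in the TRIM28 differences was not tested. Trim28 itself had an RNA signal of 1697, 1667 and 1759 in D29, D55 and DAC203, against 1253, 1504 and 1377 in B41, B44 and B51 (0.31, limma adjusted p = 0.0189). That call was lost without B41, without B51 and without D29 (adjusted p up to 0.0781).

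**Figure D1:**
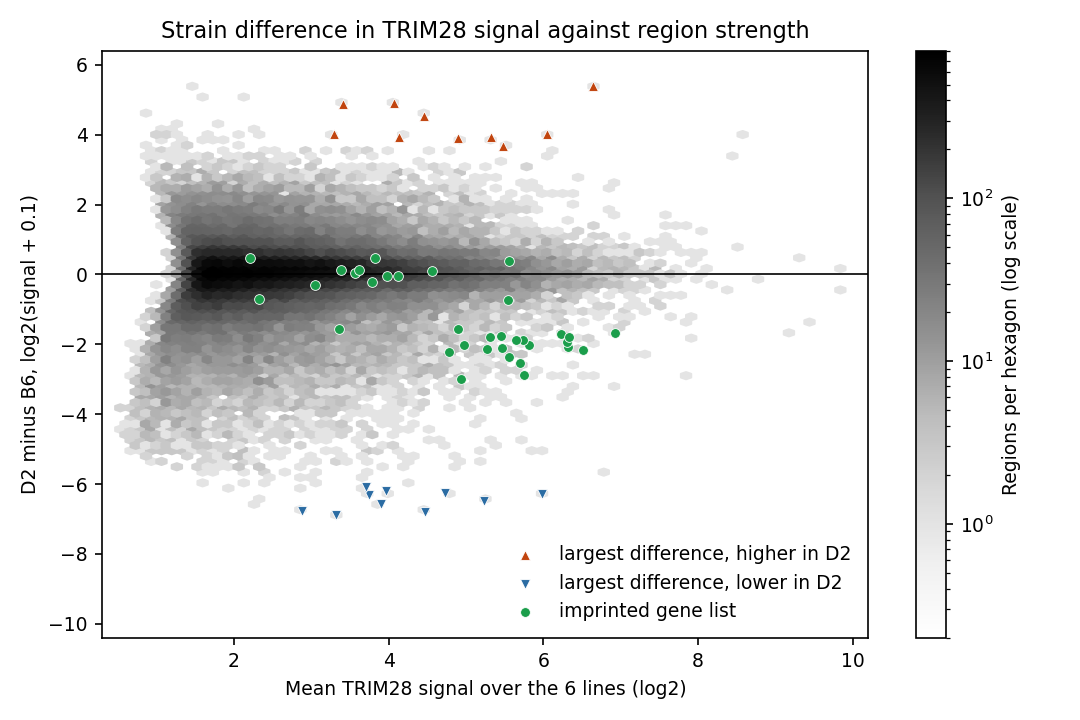
Strain difference in TRIM28 signal (y axis, D2 minus B6 on the log2(signal + 0.1) scale) against the mean log2 signal over the 6 lines (x axis), for 94211 regions binned in hexagons whose grey shows the number of regions. Triangles mark the 10 largest called gains and 10 largest called losses in D2 among regions of at least median signal, at most 1 per 100 kb, and green circles the 34 regions of the imprinted gene list, most of which sit well below 0 among strongly bound regions.

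TRIM28 was lower in D2 at most regions of imprinted genes. A list of 50 genes of imprinted domains had a TRIM28 region in or within 10 kb of 48 genes, which came to 34 distinct regions. Of these, 23 were lower in D2, 2 were higher and 9 were not called, so that 73.5% were called, beside 38.1% of all regions. The median difference over the 34 regions was -1.72, beside 0.05 over all regions. Of the lower regions, 21 were over 2-fold lower, between -2.99 and -1.55, and 18 of them lay within 1 kb of a transcription start site. The count of 23 lower regions stood under every alternative scaling, test and left-out line. The other 2 lower regions were at Ddc (-0.73) and Ndn (-0.71), and the 2 higher ones were at Igf2 (0.38) and Zdbf2 (0.48), the first not called in limma without a trend (adjusted p = 0.0708).

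Values are given below for D29, D55 and DAC203, against B41, B44 and B51. Nap1l5, an imprinted retrogene of the nucleosome assembly family inside an intron of Herc3 (chr6:58905727-58908209), had a TRIM28 signal of 6.55, 6.82 and 6.74 in D2 and 58.6, 60.6 and 43.8 in B6 (-2.99, SE 0.127, limma adjusted p = 3.78e-22). All 3 D2 lines lay far below the lowest B6 line, and they differed from each other by less than the B6 lines did. At Plagl1, a zinc finger gene that restrains growth (chr10:13087128-13093091), the signal was 16.05, 13.4 and 15.96 in D2 and 98.5, 95.3 and 72.4 in B6 (-2.53, SE 0.120, adjusted p = 1.38e-20). At Kcnq1ot1, the noncoding RNA whose promoter is the control region of the Kcnq1 domain (chr7:143293781-143298437), it was 16.05, 14.3 and 12.8 in D2 and 67.9, 64.7 and 55.9 in B6 (-2.12, SE 0.118, adjusted p = 1.65e-18). The strains were apart at both, with the highest D2 line at a fraction of the lowest B6 line.

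H19, the noncoding RNA beside Igf2, is controlled by a region methylated on the paternal copy, unlike most of the others, which are methylated on the maternal copy. Its region (chr7:142576663-142583695) had 19.1, 14.8 and 16.2 in D2 and 72.1, 72.3 and 70.1 in B6 (-2.10, SE 0.114, limma adjusted p = 9.95e-19). The region upstream of Meg3, also methylated on the paternal copy (chr12:109523520-109533238), had 45.2, 29.8 and 25.8 in D2 and 123.8, 122 and 126 in B6 (-1.92, SE 0.138, adjusted p = 2.97e-12). Regions of both parental kinds were thus lower in D2, and the D2 and B6 lines did not overlap at either. At Igf2r, which encodes the receptor that clears IGF2, with its antisense RNA Airn (chr17:12738494-12746108), the signal was 22.7, 21.7 and 21.8 in D2 and 100.3, 99.9 and 72.8 in B6 (-2.02, SE 0.117, adjusted p = 7.05e-18).

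Peg3, a paternally expressed zinc finger gene (chr7:6726095-6731634), had 37.6, 33.8 and 34.4 in D2 and 123, 124.2 and 97.5 in B6 (-1.69, SE 0.111, limma adjusted p = 3.20e-16). Snrpn, a splicing factor gene at the imprinting centre of the Prader-Willi domain (chr7:60002544-60005714), had 25.3, 16.2 and 18.8 in D2 and 67.8, 76.2 and 57.5 in B6 (-1.75, SE 0.130, adjusted p = 6.18e-14). Mest, a paternally expressed hydrolase gene (chr6:30734880-30741281), had 41.7, 27.9 and 23.3 in D2 and 139, 132 and 114 in B6 (-2.09, SE 0.155, adjusted p = 6.69e-10). The D2 lines spread more at Snrpn and Mest than at Peg3, with D29 highest at each, and stayed below every B6 line. Gnas, the gene of a stimulatory G protein subunit, had the highest D2 signal of the 21 regions, with 73.6, 50.9 and 51.8, against 186, 198 and 169 in B6 (-1.66, SE 0.117, adjusted p = 2.45e-15).

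The remaining 11 regions over 2-fold lower fell in the same range. Cdh15, a cadherin gene, averaged 12.8 ± 2.15 in D2 and 94.5 ± 9.08 in B6 (SD, n = 3 each). Inpp5f, a phosphatase gene, averaged 15.1 ± 2.11 in D2 and 78.6 ± 7.69 in B6. The others were at Gpr1 (-2.22), Nnat (-2.15), Grb10 (-2.02), Impact (-1.88), Peg13 (-1.87), Zrsr1 (-1.78), Peg10 (-1.78), Mcts2 (-1.57) and Zim1 (-1.55). Among all 21, Mcts2 had the widest B6 lines, at 30.4, 63.3 and 41.2 beside 14.2, 15.7 and 13.4 in D2, and its adjusted p was 0.047 without D29.

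**Figure D2:**
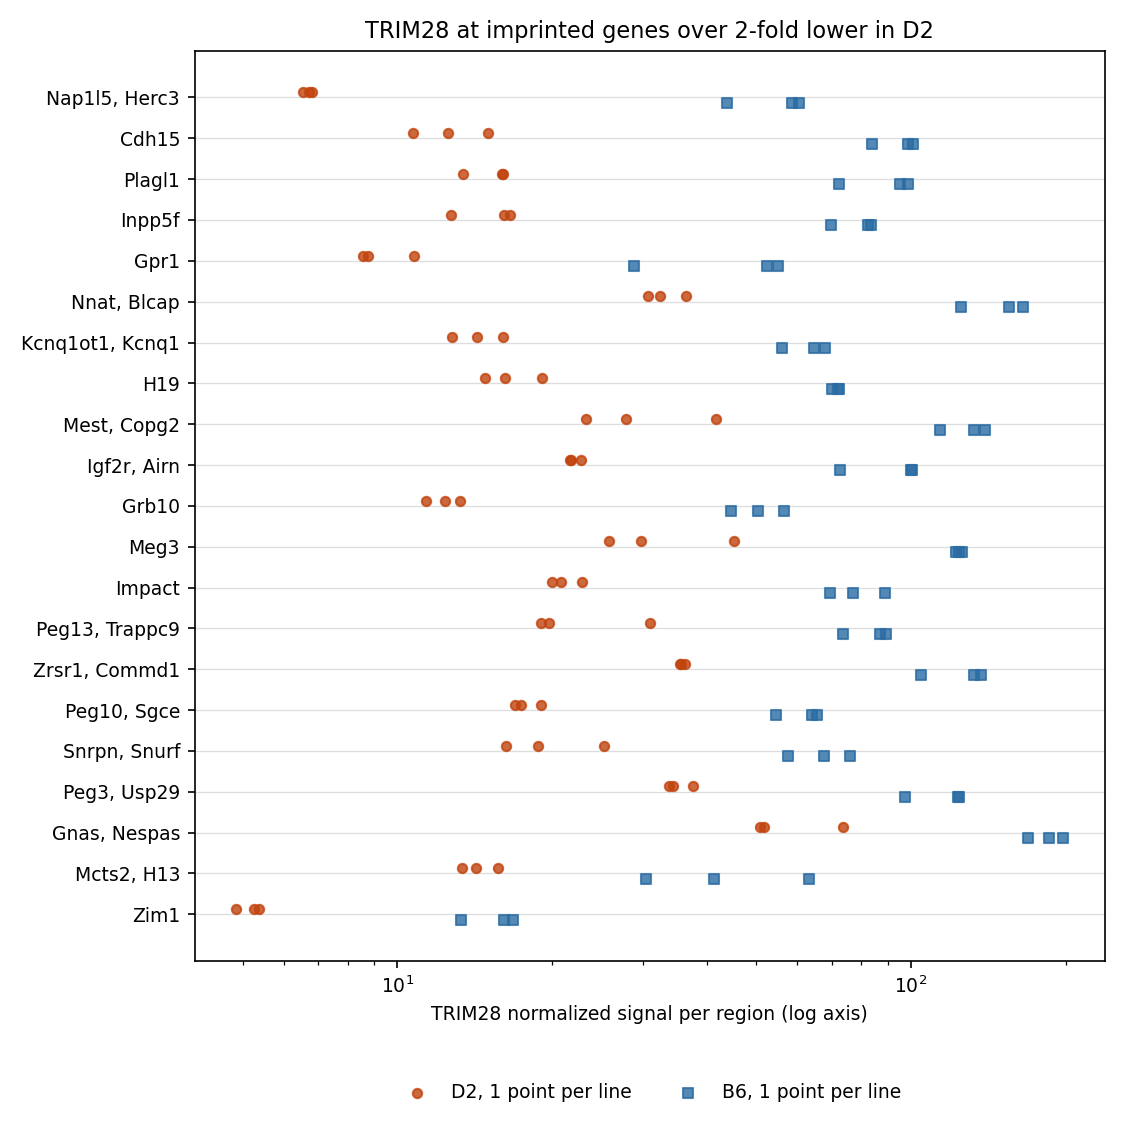
TRIM28 normalized signal (x axis, log scale) at the 21 regions of the imprinted gene list that were over 2-fold lower in D2, 1 row per region named by its genes and ordered by the size of the difference. Circles are the 3 D2 lines and squares the 3 B6 lines; in every row each D2 line lies left of each B6 line.

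The ZFP57 motif was dense in these regions. Each of the 21 held between 2 and 14 copies on both strands together, with a median of 6. A stretch of 150 bases with at least 1 copy was found in 21 of 21 regions, beside 32.7% of all TRIM28 regions, 35.1% of those lower in D2 and 27.6% of those higher. At least 2 copies stood in such a stretch in 18 regions, beside 3.42% of all regions, and at least 3 copies in 12 regions, beside 0.467%. The imprinted regions were 2335 to 13004 bases long and the median region 1723, and length raises the chance of a match. The motif also holds a CpG, and 18 of the 21 regions lay within 1 kb of a start site, beside 16555 of all 94211 regions. Shares among promoter regions alone, or among the other regions of the imprinted list, were not computed. Among all regions lower in D2, 3.35% held 2 copies, beside 3.79% of regions not called.

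Accessibility at the same control regions mostly went the other way. Of the 21 regions, 19 had an ATAC region, of which 16 were more accessible in D2 and 0 less accessible, beside 22.2% of all ATAC regions higher and 24.7% lower in D2. By edgeR on recovered ATAC reads the same 16 were called higher. The called differences ran from 0.28 to 1.03. ATAC differences are on the log2(signal + 0.1) scale, and those of P300, POU5F1 and RNA on the log2(signal + 1) scale. At Igf2r the ATAC signal averaged 33.5 ± 0.960 in D2 and 16.4 ± 0.461 in B6 (1.03, limma adjusted p = 2.63e-10). At Peg3 it averaged 97.9 ± 3.31 in D2 and 63.8 ± 4.06 in B6 (0.62), and at Snrpn 34.7 ± 0.959 in D2 and 20.6 ± 0.352 in B6 (0.75). The 3 regions not called were at Nnat (-0.04), H19 (-0.02) and Mcts2 (0.12). P300, an acetyltransferase of active enhancers, was called higher at 2 of 18 of these regions, beside 6.17% of all P300 regions, and POU5F1, a core pluripotency factor, at 4 of 16, beside 6.48% of all POU5F1 regions. Accessibility varied in the gene lists described below. In the KRAB silencing list 20 of 32 regions were more accessible in D2 and 1 less, and in the mesendoderm list 1 of 14 was more and 5 less. Of the 21 imprinted regions, 18 lay within 1 kb of a start site. Accessibility shares among promoter regions alone were not computed.

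Accessibility in other genotypes was read at the 16 regions. ESCs of the F1 hybrid, which carries 1 genome of each strain, lay between D2 and B6 at 13 of them. Across 33 BXD lines, each from an inbred strain descended from a cross of B6 and D2, between 11 and 30 lines lay on the D2 side of the midpoint, with a median of 24.5. Neither the F1 count nor the BXD count was computed over all ATAC regions. Whether either is particular to these regions was not tested. At Igf2r the BXD lines ran from 15.5 to 38.1 with a median of 24.98, which spans the D2 mean of 33.5 and the B6 mean of 16.4. At Peg3 they ran from 66.4 to 122 with a median of 89.1. The samples of the series include no TRIM28 library of a BXD or F1 line.

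RNA of the genes at these 21 regions was more often higher than lower in D2. Of 26 genes of the 21 regions with RNA tested, 12 were higher, 1 was lower and 13 were not called, beside 17.3% of all genes higher and 20.3% lower. Kcnq1ot1 RNA was 31.7, 46.3 and 23.9 in D29, D55 and DAC203, against 13.4, 15.7 and 16.2 in B41, B44 and B51 (1.07, limma adjusted p = 0.00314). Peg3 RNA was 502, 400.5 and 329 in D2 and 182, 188 and 197 in B6 (1.10, adjusted p = 0.000321). Mest RNA was 37.3, 54.0 and 36.9 in D2 and 14.4, 25.1 and 20.9 in B6 (1.06, adjusted p = 0.00342). At all 3 genes the lowest D2 line exceeded the highest B6 line.

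Grb10, which encodes an adaptor that dampens insulin and growth factor receptors, averaged an RNA signal of 145 ± 23.3 in D2 and 84.1 ± 3.28 in B6 (0.76). Zrsr1, a splicing factor retrogene, averaged 18.7 ± 1.00 in D2 and 10.1 ± 0.747 in B6 (0.83). Mcts2, Snrpn, Snurf, Impact, Peg10, Igf2r and Gnas were also higher, by 0.32 to 0.83. The calls of 3 of these genes were lost in places: Igf2r was lost without B44, B51, D55 or DAC203 (adjusted p up to 0.0942), Gnas without B44 or B51 (up to 0.0645) and Peg10 without DAC203 (0.0851). Inpp5f was lower (-0.61), a call lost without B41, B44, B51 or D29 (up to 0.0722). H19, Nnat, Copg2, Sgce and Commd1 were among those not called. Over the whole imprinted list, 18 of 40 tested genes were higher and 5 lower, the other lower ones being Slc22a18 (-1.30), Phlda2 (-1.15), Ndn (-0.61) and Rian (-0.38), the last not called without B41, B44 or B51 (adjusted p up to 0.136).

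RNA of the factors that carry TRIM28 to imprints was read in the same lines. Zfp57 had an RNA signal of 183, 162 and 149.8 in D29, D55 and DAC203, against 149, 201 and 176 in B41, B44 and B51 (-0.08, limma adjusted p = 0.623), and the lines overlapped. Zfp445 averaged 27.5 ± 2.80 in D2 and 35.0 ± 1.31 in B6 (-0.34, adjusted p = 0.0214), a call lost without any B6 line (up to 0.0854). Dnmt3l, a cofactor of new DNA methylation, averaged 394 in D2 and 145 in B6 (1.45), and Dnmt3b, a methyltransferase, 223 in D2 and 92.8 in B6 (1.26). Of 34 tested genes of KRAB silencing and H3K9 methylation, 5 were higher and 12 lower in D2, beside 17.3% of all genes higher and 20.3% lower. Cbx3, an HP1 protein gene (175 ± 23.1 in D2 and 255 ± 18.9 in B6), Cbx1, Gm15446, Hdac2 and Mphosph8 were lower in all alternatives tried for RNA, while each of the other calls was lost in at least 2. TRIM28 binding at the genes of that list was called at 10 of 35 regions, 4 higher and 6 lower, or 28.6%. Over all regions 38.1% were called, and 20.4% of those within 1 kb of a start site, as 28 of the 35 were. The calls at Sumo2, Atrx and Zfp809 held with any line left out and the others did not. The first region, within 10 kb of Sumo2, a small modifier protein gene, and nearest to Jpt1, was over 2-fold lower (11.2 ± 1.16 in D2 and 23.5 ± 2.08 in B6).

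In the other gene lists, between 7.14% and 40% of regions were called, beside 38.1% of all regions and 20.4% of those within 1 kb of a start site. Many listed regions were of that second kind, as 17 of 25 germline and 16 of 20 core pluripotency regions were. Comparisons with all regions below do not allow for this. Single genes of the lists are described here. Nefm, a neurofilament subunit gene of neurons (chr14:68115779-68126216), had a TRIM28 signal of 41.5, 36.9 and 42.6 in D2 and 154, 151 and 141 in B6 (-1.88, SE 0.105, limma adjusted p = 2.41e-18). Its accessibility averaged 27.3 ± 1.59 in D2 and 12.7 ± 0.214 in B6, and its RNA was 74.7, 55.5 and 28.1 in D2 and 1.70, 4.73 and 3.14 in B6 (3.64, adjusted p = 8.07e-05). Its repeated motif, shown above, is outside the imprinted list. Another region lay within 10 kb of Hes5, a Notch target gene of neural progenitors, and over an exon of its neighbour Pank4 (chr4:154968130-154977015). It had 16.3, 18.4 and 17.9 in D2 and 140.3, 139 and 113 in B6 (-2.89, SE 0.112, adjusted p = 2.67e-23). Accessibility there averaged 6.06 ± 0.904 in D2 and 1.65 ± 0.279 in B6. In the neuroectoderm list, 3 of 15 regions were lower, 2 higher and 10 not called, a share called of 33.3%.

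Among 19 regions of naive pluripotency genes, 4 were higher, 2 lower and 13 not called, a share called of 31.6%, below the 38.1% of all regions. Il6st encodes the shared receptor subunit of LIF signalling, and the strongest region within 10 kb of it lay in an intron of the neighbouring Il31ra (chr13:112516280-112520929), with 12.3, 12.5 and 11.6 in D2 and 73.8, 77.3 and 66.9 in B6 (-2.57, SE 0.113, limma adjusted p = 1.13e-21). Its accessibility averaged 3.42 ± 0.424 in D2 and 0.855 ± 0.327 in B6, while Il6st RNA was not called (0.05). A region within 10 kb of Nr5a2, an orphan nuclear receptor gene (chr1:136965163-136968831), had 32.2, 27.7 and 33.6 in D2 and 5.42, 4.35 and 2.85 in B6 (2.90, SE 0.161, adjusted p = 2.50e-17). Nr5a2 RNA averaged 67.9 ± 6.17 in D2 and 94.9 ± 6.79 in B6 (-0.48). Stat3, the transcription factor downstream of LIF, had 29.5, 30.4 and 29.4 at its region in D2 and 9.17, 9.86 and 11.3 in B6 (1.56), with accessibility of 1.79 ± 0.440 in D2 and 4.51 ± 0.109 in B6. At each of these 3 genes the D2 and B6 lines were apart.

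Of 20 core pluripotency regions 3 were higher, at Pou5f1 (0.28), Dppa2 (0.38) and Dppa4 (0.40), and 17 were not called. The 15% called stood beside 38.1% of all regions and 20.4% of those within 1 kb of a start site. Each of these calls was lost with a line left out: Pou5f1 without any line but D29 (limma adjusted p up to 0.14), Dppa2 without B44 (0.0528) and Dppa4 without B41 (0.133). Of 17 formative regions 2 were higher and 2 lower, with Grhl2, a transcription factor gene of epithelial enhancers, at 13.2 ± 0.850 in D2 and 30.7 ± 2.59 in B6 and its RNA at 7.64 ± 1.70 in D2 and 2.18 ± 0.388 in B6. Higher RNA was common in that list whatever the TRIM28 call, with 12 of 17 tested genes higher in D2 and 1 lower. Germline genes had 6 of 25 regions higher and 2 lower, with Tex101 at 1.33 and Asz1 at 1.13. The 32% called is below the share of all regions and above the 20.4% of regions within 1 kb of a start site. Many of these genes had RNA in these lines, as Tex14 did (22.6 ± 7.55 in D2 and 20.7 ± 1.12 in B6). Of 16 tested for RNA, 1 was higher and 4 lower in D2, beside 17.3% of all genes higher and 20.3% lower. The higher one, Hormad1, lost its call in 5 alternatives. Genes of the 2-cell-like state had 4 of 15 higher and 2 lower, and the 40% called is near the 38.1% of all regions, with Tcstv3 at 30.02 ± 3.51 in D2 and 7.09 ± 1.83 in B6 and Tdpoz4 at 13.3 ± 0.636 in D2 and 4.22 ± 0.290 in B6. Duxf3, of the Dux family that starts that state, was lower (57.2 ± 6.45 in D2 and 96.1 ± 5.89 in B6), and near-identical copies in the Dux, Tcstv and Tdpoz families make the assignment of reads there uncertain. Of 12 trophectoderm regions 2 were higher and 10 not called, and of 14 mesendoderm regions 1, at Wnt3, was higher and 13 not called, both shares below that of all regions. At the trophectoderm gene Tfap2a TRIM28 was higher by 0.66 to 0.87 over the settings tried. Its RNA was higher too (21.2 ± 5.24 in D2 and 1.76 ± 0.283 in B6). The Wnt3 call was lost without B44 (limma adjusted p = 0.0558).

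Among called regions of at least median signal, the largest gain was a region 24418 bases from Ccr1, a chemokine receptor gene (chr9:123935024-123937706). It had 250.1, 127 and 209 in D29, D55 and DAC203, against 2.64, 5.51 and 5.85 in B41, B44 and B51 (5.38, SE 0.449, limma adjusted p = 0.000877). The neighbouring region, chr9:123923005-123934699, is among the 10 strongest of the table and had 877, 481 and 733 in D2 and 38.2, 50.96 and 42.4 in B6 (3.95, SE 0.197, adjusted p = 3.23e-08). Accessibility went opposite ways at the pair, with 9.40 ± 3.71 in D2 and 1.62 ± 0.294 in B6 at the smaller region (2.40) and 20.7 ± 3.82 in D2 and 29.4 ± 0.596 in B6 at the larger (-0.52). POU5F1 was higher in D2 at both, by 1.99 and 0.77.

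The other gains of this size were mostly intronic or between genes. The region between genes on chromosome 17 whose sequence is shown above (chr17:6495922-6497949) had 37.7, 27.4 and 32.3 in D2 and 1.39, 1.54 and 0.428 in B6 (4.89, SE 0.436, limma adjusted p = 9.75e-05). An intron of Exoc4, an exocyst subunit gene (chr6:33498855-33501511), had 50.6, 36.3 and 40.1 in D2 and 1.53, 1.92 and 1.71 in B6 (4.53, SE 0.155, adjusted p = 3.96e-25). An intron of Hs2st1, a heparan sulfate sulfotransferase gene (chr3:144486382-144492234), had 153, 98.9 and 123 in D2 and 8.33, 7.17 and 7.28 in B6 (4.004, SE 0.126, adjusted p = 3.47e-26). D2 lines were far above B6 lines at each, and at Hs2st1 accessibility was also higher (4.99 in D2 and 0.768 in B6), whereas in an intron of Zranb3, a DNA repair helicase gene, TRIM28 was higher by 3.95 and accessibility lower by limma (1.54 in D2 and 2.53 in B6). The other 5 were at Gm7356, Sntg1, Gm13212, Hs3st3b1 and Gm31371, with differences of 3.69 to 4.87.

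The 10 largest losses among called regions of at least median signal reached almost no signal in D2. The region between genes on chromosome 12 shown above (chr12:20954636-20958232) had 0.128, 0.518 and 0.355 in D2 and 42.5, 44.3 and 45.5 in B6, from 15 reads over the 3 D2 lines and 971 over the 3 B6 lines. A region 7651 bases from Gm16368 (chr12:88091782-88099807) had 1.41, 1.83 and 1.30 in D2 and 137, 136 and 104 in B6, from 61 reads in D2 and 2773 in B6 (-6.28, SE 0.139, limma adjusted p = 3.14e-31). A region near the major urinary protein gene Mup8 (chr4:60265226-60268148) had 0, 0.376 and 0 in D2 and 18.6, 22.8 and 18.3 in B6. D2 and B6 were apart at every one of the 10 losses, which were called under all alternatives. With so few D2 reads the size of a difference depends on the pseudocount: at Mup8 it was -6.89 with 0.1 and as little as -4.22 under the alternatives. The nearest genes of the others were Scgb2b12, Psg29, Gm12887, Skint4, H60c, Gm14403 and Gal3st2b, and the 4 with an ATAC region were less accessible in D2, as at Skint4 (0.344 ± 0.143 in D2 and 9.65 ± 1.01 in B6).

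**Figure D3:**
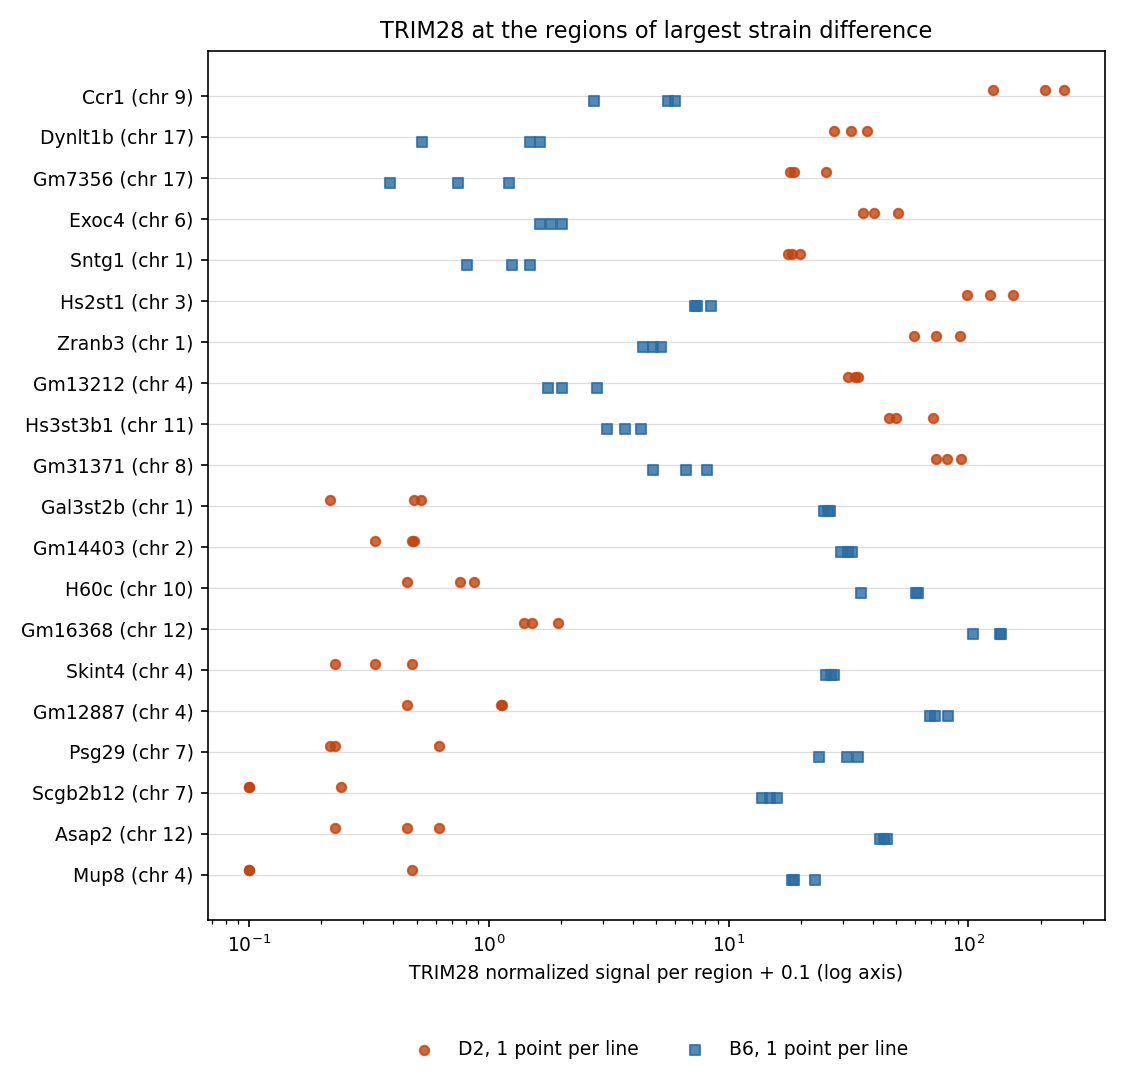
TRIM28 normalized signal plus 0.1 (x axis, log scale) at the 10 largest called gains (upper rows) and 10 largest called losses in D2 (lower rows) among regions of at least median signal, each named by the nearest gene and its chromosome. Circles are D2 lines and squares B6 lines, which are apart in every row; D2 lines at 0 signal are drawn at 0.1 and overlie each other at Mup8 and Scgb2b12.

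The 10 strongest regions were a mixed group. Agrn, a synapse-organising proteoglycan gene, has a region of great length (chr4:156145981-156198625) with 325, 277 and 271 in D2 and 935, 925 and 836 in B6 (-1.63, SE 0.0994, limma adjusted p = 3.30e-17). The region over Xpot and Tbk1 (chr10:121585581-121617082) had 782, 521 and 582 in D2 and 59.3, 66.5 and 62.9 in B6 (3.30, SE 0.113, adjusted p = 5.58e-25). Strains were apart at both, in opposite directions. Cep57l1 (0.52) and Zfp990 (0.76) were higher in D2, the first not under quantile normalization (adjusted p = 0.102), and D10Wsu102e (-0.39) and Cfap53 (-0.36) were lower, with both of these calls lost without B41 and in limma without a trend, and Cfap53 also without B44 (adjusted p up to 0.078 and 0.0993). The regions nearest to Esp38, Zfp982 and Gm21860 on the Y chromosome were not called, though each passed under at least 1 alternative.

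Shares called varied along the chromosomes. Among 2390 windows of 1 Mb with at least 10 regions, the median share of regions called was 40%, and the windows described here were chosen as those with the largest share. In the window at 32000001 on chromosome 7, over a cluster of secretoglobin genes (Scgb), 17 of 17 regions were called, 16 lower and 1 higher, with a median signal of 0.169 in D2 and 4.22 in B6. The windows at 112000001 and 113000001 on chromosome 4, over Skint genes of the immunoglobulin family, had 35 of 38 and 20 of 21 regions lower, with medians of 0.377 and 0.444 in D2 and 6.67 and 5.21 in B6. The window at 59000001 on chromosome 7, with Ube3a and Snrpn, had 15 of 16 lower and medians of 3.498 in D2 and 8.91 in B6. In the window at 173000001 on chromosome 1, with olfactory receptor genes and interferon-induced Ifi genes, 13 of 14 were lower. The window at 122000001 on chromosome 1 was mixed, with 6 higher and 8 lower of 15. Some other such windows held at most 1 protein-coding gene, and genes or gene segments of other classes were not counted. Those at 115000001 on chromosome 12 and 53000001 on chromosome 7, with 0 protein-coding genes, had 16 of 18 and 21 of 25 lower. That at 110000001 on chromosome 14, with 1, had 17 of 20 lower.

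Regions with almost no D2 reads were rich in repeats. At most 3 reads over the 3 lines of a strain were found at 80 regions in D2 and at 5 in B6. The 80 regions had a B6 mean of 2.99 to 14.7, and a median of 72.2% of their bases was soft-masked as repeat or low complexity, beside 29.3% over all regions. Only 6 of the 80 had an ATAC region, and accessibility was called lower in D2 at all 6, with medians of 0.0992 in D2 and 3.41 in B6. The mm10 genome is the assembly of B6, and whether D2 variants entered the mapping was not stated in any label. The part of mapping, and of sequence that D2 may lack, in these losses was not tested.

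Accessibility followed TRIM28 in some size classes and opposed it in others. Each TRIM28 region was paired with the ATAC region of largest overlap. Of 8869 pairs with TRIM28 higher in D2, 3825 (43.1%) were more accessible in D2 and 1618 (18.2%) less. Of 5608 pairs with TRIM28 lower, 1075 (19.2%) were more accessible and 3043 (54.3%) less, and of 38722 pairs with TRIM28 not called, 23.3% were more and 20.2% less accessible. In all, 6868 called regions went the same way in both assays and 2693 the opposite way, or 4051 and 1067 where an overlap of at least 50% of both regions was required.

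By size, regions under 2-fold higher in TRIM28 were more accessible in 45.0% of pairs and less in 12.9%. Those over 8-fold higher were more accessible in 9 of 30 pairs and less in 17 of 30, and those 4- to 8-fold higher less in 54.2%. Small gains thus came with more open chromatin, and large gains more often with less open chromatin. Regions over 8-fold lower were less accessible in 141 of 153 pairs (92.2%), with a median ATAC difference of -3.80, and 12.4% of them had an ATAC region at all. The median soft-masked share was 70.1% in that class, 23.9% in regions not called and 41.8% in regions over 8-fold higher. Repeat content was highest at the largest losses, and its part in them was not tested.

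**Figure D4:**
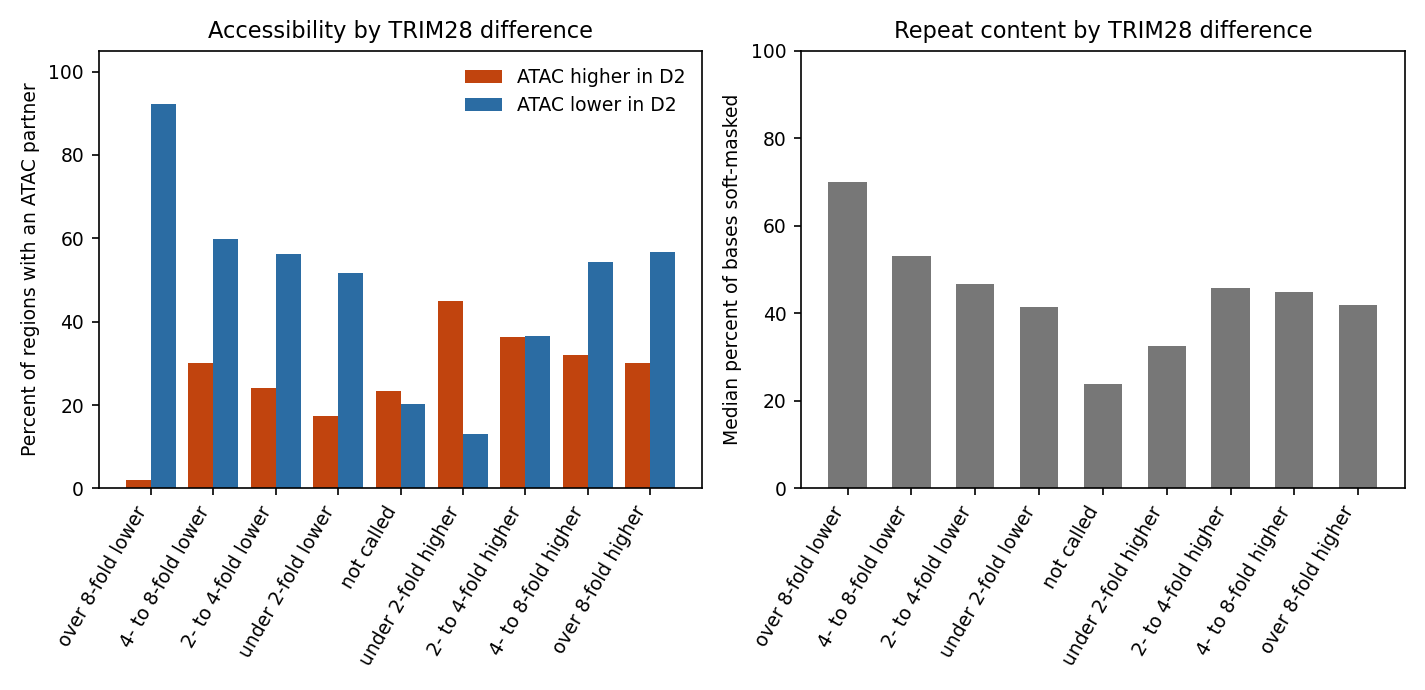
Left, percent of TRIM28 regions with an ATAC partner whose accessibility was called higher (orange) or lower (blue) in D2, by direction and size of the TRIM28 difference from over 8-fold lower to over 8-fold higher. Right, median percent of bases soft-masked in the genome for the same classes, which is 70.1% at the largest losses and 23.9% in regions not called.

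Single regions show the opposite pattern, chosen after their values were seen as called both ways with large sizes. Over an exon of Tipin, a replication fork protein gene (chr9:64299755-64309175), TRIM28 was 136, 109.5 and 119 in D2 and 10.0, 12.2 and 12.8 in B6, while accessibility averaged 1.03 ± 0.0895 in D2 and 4.52 ± 0.286 in B6. Over Bst1, a gene of a cell-surface nucleotide-metabolising enzyme (chr5:43835650-43839032), TRIM28 was 6.16, 7.06 and 6.98 in D2 and 35.1, 38.8 and 31.8 in B6, while accessibility averaged 9.12 ± 0.519 in D2 and 1.401 ± 0.324 in B6. The strains were apart in both assays at both regions. Similar pairs were found near Kcnf1, Mtus1, Snapc3 and Odaph, with TRIM28 higher, and near Crtac1, Inpp4a and Thrb, with TRIM28 lower.

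P300 and POU5F1 were called far less often, with 2 lines per strain. P300 was higher in D2 at 6.17% and lower at 5.16% of its regions, and POU5F1 higher at 6.48% and lower at 4.36%. Where TRIM28 was higher and a P300 region overlapped, P300 was higher at 756 of 4505 pairs (16.8%) and lower at 113 (2.51%). Where TRIM28 was lower, P300 was lower at 431 of 2844 pairs (15.2%) and higher at 251 (8.83%). POU5F1 was higher at 731 of 3911 pairs (18.7%) and lower at 111 (2.84%) with TRIM28 higher. With TRIM28 lower, it was lower at 521 of 2847 pairs (18.3%) and higher at 267 (9.38%). The same-direction total for P300, 1187, was 536 without B41, 483 without B51 and 715 with the stricter overlap, and that for POU5F1, 1252, was 764 without D29, 631 without D55 and 759 with the stricter overlap.

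Position in the genome set apart the calls. Between genes, 46.3% of 44879 regions were called, 9972 higher and 10825 lower. In introns 37.4% of 22254 were called, and in exons 32.5% of 10523. Within 1 kb of a start site 20.4% of 16555 regions were called, 2514 higher and 866 lower. Promoters thus held fewer calls, and their excess of gains lay mostly in differences under 2-fold. They made up 17.97% of regions under 2-fold higher and 6.09% of those under 2-fold lower. Of regions 2- to 4-fold higher and lower they made up 5.61% and 3.80%, and of those 4- to 8-fold 3.03% and 4.27%. The promoter split under other scalings was not tested. Last exons of zinc finger genes, a known class of TRIM28 site, had 34 of 204 higher and 46 lower, and the 39.2% called is near the 38.1% of all regions. Across chromosomes the share called ran from 31.5% on chromosome 11 to 45.7% on the X and 57.6% of 158 regions on the Y. The median signal of X regions was 5.13, 4.38 and 4.37 in D29, D55 and DAC203, against 4.31, 4.35 and 3.996 in B41, B44 and B51, so that D29 stood above the rest. D29 was also highest on the autosomes (5.65, beside 5.42 to 5.51 in the other lines) and on the Y (5.46, beside 3.996 to 4.72).

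Promoter binding was set beside RNA of the gene for 11198 genes with a TRIM28 region within 1 kb of a start site. TRIM28 was higher at 1618 genes, of which RNA was higher at 358 and lower at 311. It was lower at 334 genes, of which RNA was higher at 74 and lower at 107. Among genes with TRIM28 not called, RNA was higher at 15.8% and lower at 20.2%. Genes with a called promoter region and called RNA numbered 850 in all. Where TRIM28 was over 2-fold lower, the split turned: of 101 genes, RNA was higher at 38 (37.6%) and lower at 22 (21.8%). Where it was over 2-fold higher, RNA was higher at 27 genes (21.8%) and lower at 45 (36.3%). Each gene of a shared region is counted, and imprinted genes are among the 101. At the 21 imprinted regions over 2-fold lower, RNA was higher at 12 genes and lower at 1. Of those regions, 18 lay within 1 kb of a start site. The split without imprinted genes was not computed.

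Tbk1, an innate immune kinase gene, with the TRIM28 region given above (628 ± 136 in D2 and 62.9 ± 3.57 in B6), had an RNA difference of -1.09 (limma adjusted p = 0.000534). Haus4, a spindle augmin subunit gene (chr14:54542677-54555480), had TRIM28 at 239.8, 184 and 189.6 in D2 and 37.0, 37.8 and 35.1 in B6, and an RNA difference of -1.23. A promoter shared by Cep19 and Pigx had TRIM28 at 83.7 ± 8.63 in D2 and 21.3 ± 2.65 in B6. Cep19 RNA, of a ciliary protein, averaged 2.71 ± 0.475 in D2 and 13.5 ± 0.435 in B6, and Pigx RNA 10.7 ± 0.0442 in D2 and 24.5 ± 0.990 in B6. Scaf4 and Pxk also had higher TRIM28 and lower RNA; these examples were chosen after their values were seen.

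Losses at promoters came with RNA on both sides. Psmg4, a proteasome assembly gene (chr13:34161282-34166947), had TRIM28 at 17.4 ± 1.06 in D2 and 86.7 ± 5.45 in B6 and an RNA difference of 1.12. Gng10, a G protein gamma subunit gene, had TRIM28 at 13.3 ± 0.887 in D2 and 57.7 ± 4.66 in B6 and RNA at 10.6 ± 1.28 in D2 and 5.59 ± 0.105 in B6. In contrast, Elobl had TRIM28 at 32.5 ± 1.55 in D2 and 147.7 ± 13.2 in B6, with RNA at 5.28 ± 0.479 in D2 and 25.1 ± 2.44 in B6. Zfp629, a zinc finger gene, was lower in both, with TRIM28 at 48.7 ± 2.82 in D2 and 249 ± 3.002 in B6 and an RNA difference of -0.99. 1700030C10Rik lost nearly all signal in both assays, with TRIM28 at 0.860 ± 0.470 in D2 and 22.4 ± 4.34 in B6 and an RNA difference of -3.66.

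**Figure D5:**
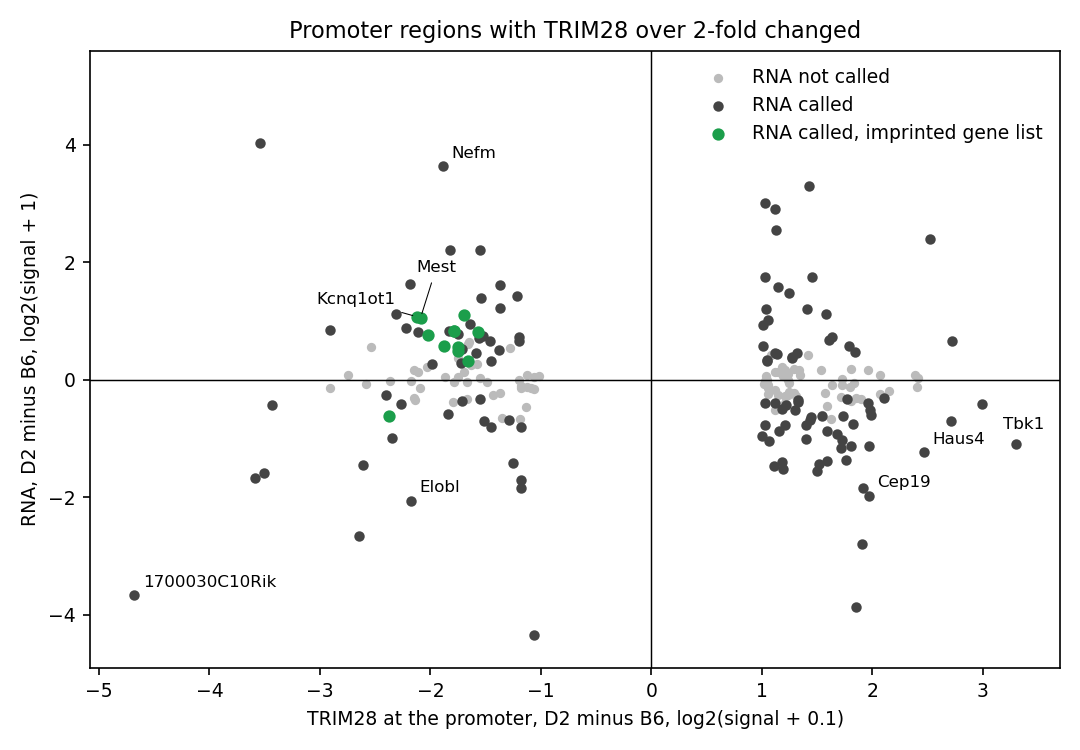
RNA difference (y axis, D2 minus B6 on the log2(signal + 1) scale) against the TRIM28 difference at the promoter (x axis, D2 minus B6 on the log2(signal + 0.1) scale) for genes with TRIM28 called and over 2-fold changed. Each point is a gene; dark points have RNA called, and green points, imprinted genes with RNA called, lie at lower TRIM28 and higher RNA except Inpp5f, at lower RNA.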

How the data were processed

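TRIM28 values are signal per region, which the authors deposited after dividing reads by a factor per library. Every value was a whole multiple of the value of 1 read in its library (100% within a tolerance of 0.01), so reads were recovered, and edgeR called 37156 regions on them. ATAC, P300, POU5F1 and RNA values are also signal that the authors deposited, with a scaling that the sources used here leave unstated. F1 accessibility came as log2 values that the authors deposited. MACS 1.4.2, Bowtie 1.0.0, HISAT2 2.0.5, mm10 and Cell Ranger are listed in the submitters' processing notes, with roles not given in the sources used here. Input libraries were not analysed here.

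D2 minus B6 was fitted with limma 3.58.1 (trend, robust) in R 4.3.3 on log2(signal + 0.1) for TRIM28 and ATAC and log2(signal + 1) for P300, POU5F1 and RNA, with RNA genes kept at a mean of at least 0.5. P-values were adjusted over all features, with 0.05 as threshold. Alternatives used edgeR 4.0.16, DESeq2 1.42.0, other scalings, pseudocounts and filters, D55 thinned, a replicate block and each line left out. Tests were checked on simulated data. A pair of regions needed 1 shared base.

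Named regions were the 10 largest called differences in each direction among regions with at least median signal and lines apart, and the 10 strongest regions, each at most 1 per 100 kb. For listed genes, the strongest region in or within 10 kb was taken. Windows were those with the largest share called. The regions and gene lists were chosen with earlier results of these data known. Coordinates are as deposited, and sequences and gene models are GRCm38.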

Additional observations from a re-analysis of the deposited data

How the results depend on the processing

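The 23 lower imprinted regions were called in every TRIM28 alternative. Of 130 named TRIM28 results, 100 kept direction and call in all 15 alternatives, as did 63 of 75 ATAC results in 8 and 77 of 119 RNA results in 7. The count of higher TRIM28 regions was 12171 by DESeq2, and the cause was not tested. With an overlap of at least 50% of both regions, same-way and opposite-way counts were 4051 and 1067 for ATAC, and same-way counts were 715 for P300 and 759 for POU5F1; fewer pairs qualify by construction. Leaving out a line gave 31322 to 33526 TRIM28 regions called, 15721 to 17379 higher and 15287 to 16955 lower, 6183 to 7019 same-way and 2374 to 2825 opposite-way ATAC regions, 483 to 1695 for P300, 631 to 1110 for POU5F1, and 621 to 908 promoter genes. Of these, P300 gave 536 without B41 and 483 without B51, and POU5F1 gave 764 without D29 and 631 without D55. The labels' replicate numbers did not pair the lines: same-numbered TRIM28 libraries deviated together at r of 0.044, -0.007 and 0.024. With a replicate block, 36930 TRIM28 regions were called (19159 higher, 17771 lower), with 6454 same-way and 2541 opposite-way ATAC regions and 659 promoter genes, and the RNA calls of Trim28, Gnas and Zfp445 were lost (adjusted p = 0.0613, 0.0543 and 0.0636). D55 was the deepest library, and 34690 regions were called with it thinned. The 2 lines per strain limit P300 and POU5F1.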
